A study of Mus musculus with 8 samples.

Results

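The tumour necrosis factor (TNF) superfamily was described in 6 cell groups from ependymomas of mice with the ZFTA-RELA fusion. The genes were chosen by symbol, and 40 of the 33696 genes in the matrices belonged to the family. They comprised 16 ligands, 5 receptors with a death domain, 3 decoy receptors and the 16 remaining receptors, grouped here as binding TRAF adaptor proteins. All 40 had at least 1 unique molecular identifier (UMI, a tag that counts RNA molecules) in the grouped cells.

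TNF superfamily ligands are mostly trimeric membrane proteins that can be shed, and each binds one or a few receptors on neighbouring cells. Receptors with a death domain can start apoptosis or inflammatory signalling, whereas many receptors without one recruit TRAF proteins and drive NF-kB signalling and lymphocyte survival. In T cells several of these receptors act as co-stimulators, and in the brain microglia and neural cells carry others, among them the receptors for TNF, RANKL and TWEAK.

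All mice carried NestinCreERT2;Fus1;RFPTdT and were tumour-bearing. CreERT2 is a Cre recombinase that tamoxifen activates, made here in Nestin-expressing cells, and the study places recombination in embryonic radial glia. They were randomised at 3 weeks of age to 1 intrathecal injection of a control antibody (vehicle IgG) or of mavrilimumab (5 mg per kg), which binds GM-CSF receptor alpha. The labels give an age of 6 to 8 weeks at dissociation and also follow-up to a humane endpoint, whereas the study describes these cells as taken at tumour recurrence, so the age at sampling is uncertain. Droplet libraries were made from cells sorted after CD45 and Ter119 staining, described in the study as extravascular CD45+ cells, with 2 gene expression libraries per treatment. CD45 is the product of Ptprc, so the sort should remove the Ptprc-negative neural cells described here, which the libraries nevertheless held. T cell receptor (TCR) libraries were used for 3 samples, 1 labelled vehicle and 2 labelled mavrilimumab; the second vehicle TCR library was not analysed here. The labels do not give the mice per library, and tumours were pooled, so p-values measure the spread between libraries, which may be technical.

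Labels and barcodes disagreed for the TCR data. All 3 TCR files carried an internal sample name of the other treatment. The TCR library labelled mavrilimumab 1 shared 2608 of its 2749 cell barcodes with the gene expression library mavrilimumab 2 and 2 with mavrilimumab 1, and that labelled mavrilimumab 2 shared 4867 of 5659 with mavrilimumab 1 and 8 with mavrilimumab 2. TCR library vehicle 1 shared 187 of 193 with the vehicle 1 library. Gene expression libraries shared 0 to 60 cell barcodes with one another. CD8+ T cells made up 5.81% and 6.46% of the cells of the libraries labelled vehicle and 29.0% and 32.3% of those labelled mavrilimumab. In numbers they were 68 and 1734 against 1862 and 1893 cells. These shares depend on the other cells of a library, as microglia made up 64.0% of vehicle 1 and neural cells 58.4% of vehicle 2. Whether treatment labels were exchanged was not tested. Treatment differences below follow the labels of the gene expression libraries, whereas differences between cell groups within a library do not depend on them.

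Libraries held 24354457 to 148657643 UMIs and gave 1171 to 26825 cells with at least 1000 UMIs and at most 10% mitochondrial UMIs. Cells were grouped by marker UMIs as CD8+ T cells (5557 cells), regulatory T (Treg) cells with Foxp3 (884), other CD4+ T cells (2008), natural killer (NK) cells (869), microglia (2071) and neural cells without Ptprc (16134). The Treg, NK and neural groups reached 20 cells in 3, 3 and 2 of the 4 libraries and the other groups in 4, and a library with fewer cells of a group was left out of that group. The defining markers of every group were detected in every sum of 20 cells or more, except Il10, which was at 0 in Treg cells of vehicle 2. Neural markers summed to 1208 to 1458 CPM (UMIs of a gene per 1000000 UMIs of the summed cells) in every immune group of vehicle 2 and to 0 to 226 in those of the other libraries. Plasma cell markers summed to 2910 CPM in Treg cells and 2005 CPM in other CD4+ T cells of mavrilimumab 1, against 0 to 3.62 CPM in those groups of the other libraries. Foxp3 was at 0 in other CD4+ T cells by the gate. The remaining Treg markers summed there to 175, 442, 660 and 145 CPM in vehicle 1, vehicle 2, mavrilimumab 1 and mavrilimumab 2. The share of free RNA was estimated from markers of other cell groups and types. RNA of these markers made by the summed cells, or by cells caught with them, counts as free RNA in this estimate. The share can therefore be too high. It was 56.7% in other CD4+ T cells and 42.8% in Treg cells of mavrilimumab 1, against 12.6% in CD8+ T cells of that library. In microglia it was 61.9% and 70.7% for vehicle 1 and 2 and 20.0% and 24.1% for mavrilimumab 1 and 2. The remaining sums had 1.62% to 26.2%. Neural cells made up 0.0312% to 58.4% of the cells of a library.

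Levels of superfamily genes differed between cell groups, and every group but CD8+ T cells was the highest for some of them. By the median CPM over libraries, 13 of the 40 genes were highest in Treg cells, 9 in microglia, 7 in other CD4+ T cells, 6 in neural cells, 5 in NK cells and none in CD8+ T cells. A median of 20 CPM or more was reached in at least 1 group by 25 genes. Tnfsf15 (TL1A) and Tnfsf18 (GITR ligand), counted among the 6 neural genes, never exceeded 5 CPM. Their neural medians were 0.0133 and 0.0801 CPM, and their highest values, 1.85 and 0.887 CPM, were in other groups. Cd70, the ligand of CD27, reached 5.32 CPM in other CD4+ T cells of vehicle 1 and was at 0 in 3 of 4 microglial sums. The soluble decoy receptor Tnfrsf11b (osteoprotegerin) had 2.83 and 4.35 CPM in neural cells of vehicle 2 and mavrilimumab 2. It had at most 4 UMIs in every immune sum, which came to 9.98 CPM in the shallow Treg sum of vehicle 2.

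**Figure D1:**
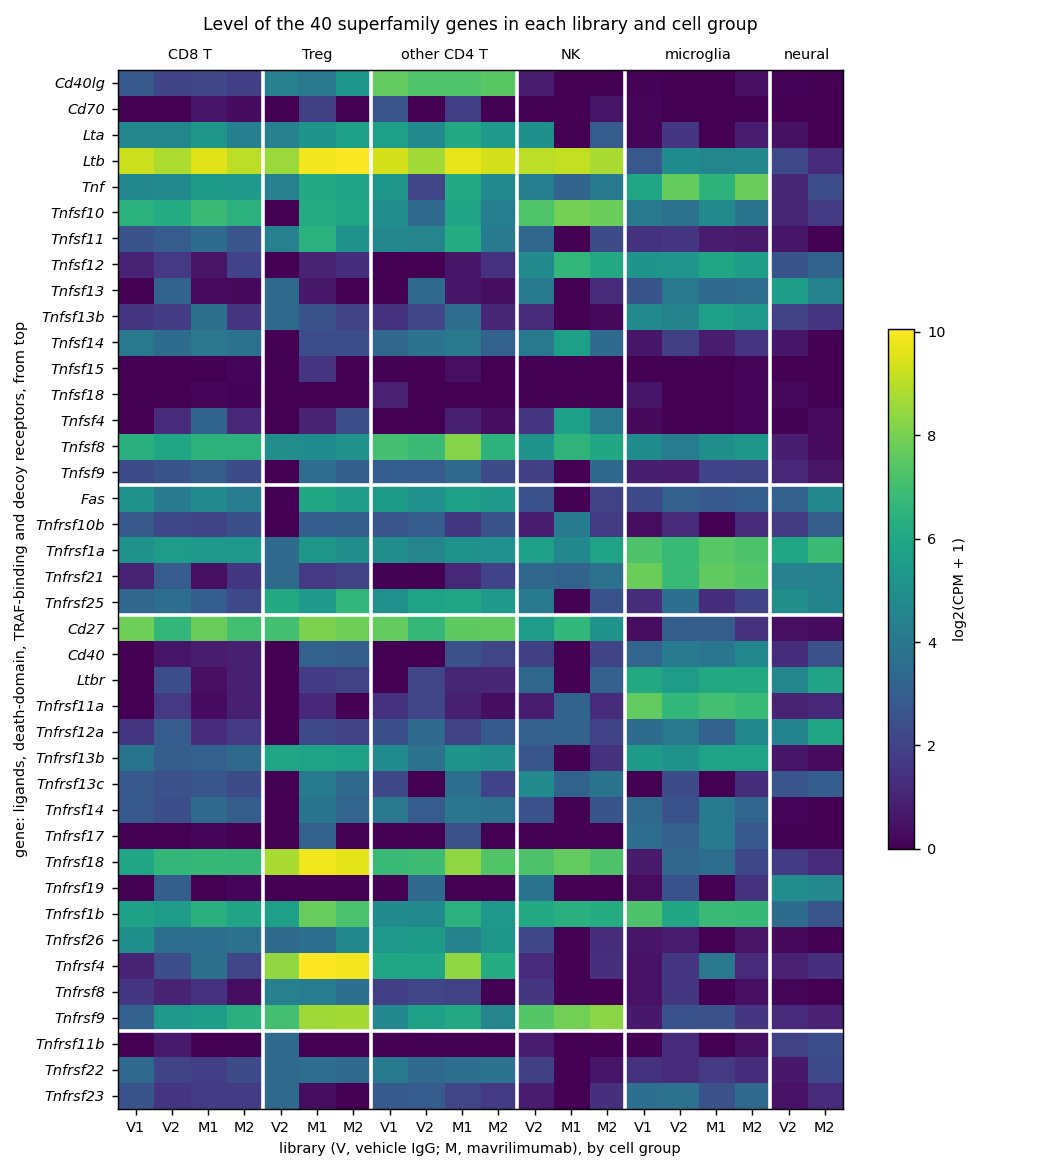
Level of each gene, as log2(CPM + 1) in colour, in the 20 sums of at least 20 cells, with libraries on the x axis by cell group and genes on the y axis by role. Tnfrsf4, Tnfrsf9 and Tnfrsf18 are bright in Treg cells, Cd40lg in other CD4+ T cells, Tnfsf10 in NK cells, and Tnfrsf11a and Tnfrsf21 in microglia.

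Treg cells were set against other CD4+ T cells to ask which superfamily genes separate the 2 CD4+ populations of the same tumours. Treg cells had more Tnfrsf4 (OX40), Tnfrsf9 (4-1BB), Tnfrsf18 (GITR), Tnfrsf8 (CD30) and Tnfrsf1b (TNF receptor 2), all co-stimulatory or survival receptors of activated T cells, and less of the ligands Cd40lg (CD40 ligand) and Tnfsf8 (CD30 ligand). Of the 28 genes that passed the filter on low counts in the 3 libraries with both groups, 5 rose and 2 fell, by edgeR's quasi-likelihood test with library as a block and a false discovery rate (FDR) of 0.05 over all genes. Of all genes tested, 5.34% were called, 3.15% as higher and 2.19% as lower. The median log2 fold change of the 28 genes was 0.22, against -0.02 for all genes.

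The promoters of the 4 receptors with the largest rises are shown, a choice made from these same data. All 4 lie on chromosome 4, and a shared regulation was not tested. RefSeq promoter windows on GRCm38.p6, from 250 bases before to 50 after a start, matched 30 of the 40 symbols with 34 windows, 9 of those symbols being on chromosome 4. Capitals mark matches, on either strand, to TGANTCA (AP-1), GGGA and TCC with any 3 bases between them (NF-kB), TTCNNNGAA (STAT) or TGTTTAC (forkhead). These letters occur in 7.81%, 4.59%, 8.30% and 3.65% of all 32851 windows, in that order. Tnfrsf9 has 2 windows, of which the downstream one is shown.
Tnfrsf4 (chr4:156013445-156013744, + strand): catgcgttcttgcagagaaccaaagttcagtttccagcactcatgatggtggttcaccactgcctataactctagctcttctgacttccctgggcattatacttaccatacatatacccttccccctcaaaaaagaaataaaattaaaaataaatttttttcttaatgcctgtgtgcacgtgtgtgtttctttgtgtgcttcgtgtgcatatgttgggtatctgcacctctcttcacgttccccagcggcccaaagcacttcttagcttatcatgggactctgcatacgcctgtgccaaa
Tnfrsf18 (chr4:156026072-156026371, + strand): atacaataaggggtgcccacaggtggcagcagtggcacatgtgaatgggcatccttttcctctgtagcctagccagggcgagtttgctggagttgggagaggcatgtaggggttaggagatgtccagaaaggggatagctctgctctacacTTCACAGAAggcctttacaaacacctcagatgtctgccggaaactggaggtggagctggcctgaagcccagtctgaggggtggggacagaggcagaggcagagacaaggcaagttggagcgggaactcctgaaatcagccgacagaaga
Tnfrsf9 (chr4:150927749-150928048, + strand): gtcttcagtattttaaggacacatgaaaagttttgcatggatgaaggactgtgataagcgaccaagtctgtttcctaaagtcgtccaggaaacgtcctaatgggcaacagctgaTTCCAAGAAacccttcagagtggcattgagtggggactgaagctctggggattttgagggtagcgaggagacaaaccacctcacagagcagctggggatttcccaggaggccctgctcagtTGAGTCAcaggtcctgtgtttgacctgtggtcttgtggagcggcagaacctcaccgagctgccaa
Tnfrsf8 (chr4:145315115-145315414, - strand): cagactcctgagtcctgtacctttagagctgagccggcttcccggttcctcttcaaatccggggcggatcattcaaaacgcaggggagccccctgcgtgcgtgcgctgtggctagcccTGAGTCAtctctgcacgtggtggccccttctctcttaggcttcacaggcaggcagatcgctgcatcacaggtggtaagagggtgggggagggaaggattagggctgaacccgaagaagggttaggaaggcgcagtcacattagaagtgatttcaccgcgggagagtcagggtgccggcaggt
The AP-1 letters lie 15 to 9 bases before the start of the downstream Tnfrsf9 window and 132 to 126 before that of Tnfrsf8, and the STAT letters 136 to 128 before that of Tnfrsf9 and 99 to 91 before that of Tnfrsf18. The window of Tnfrsf4 and the upstream window of Tnfrsf9 hold none of the 4 letter patterns. Across the family the AP-1 letters were in 7 of 34 windows and the STAT letters in 9, and only Ltb held the letters used here for NF-kB and forkhead. Other forms of these sites were not searched, so a window without capitals may still hold 1 of them. A match is a string of letters and not a measured binding site.

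Tnfrsf4 was at 339, 1057 and 933 CPM in Treg cells of vehicle 2, mavrilimumab 1 and mavrilimumab 2 and at 59.4, 330 and 74.1 CPM in the other CD4+ T cells of those libraries. Every Treg value exceeded every other CD4+ value, and the log2 fold change was 2.54 ± 0.27 (SE, n = 3 libraries; edgeR adjusted p = 9.9e-06). With each cell thinned to 1000 UMIs, 29.8%, 58.5% and 43.4% of Treg cells had a Tnfrsf4 UMI, against 5.57%, 23.2% and 5.42% of other CD4+ T cells and 0.127% to 1.01% of microglia in the same libraries, which serve as background. No cell was shallower than 1000 UMIs. Before thinning, the shares were 51.9%, 87.1% and 74.1% of Treg cells, 9.26%, 45.8% and 18.9% of other CD4+ T cells and 0.831% to 1.90% of microglia, at median depths of 2618 to 7318, 2029 to 8262.5 and 3170 to 11367.5 UMIs. In mavrilimumab 1, where the other CD4+ value was highest, barcodes of 1 to 100 UMIs (free RNA) held 182 CPM of Tnfrsf4, against 0.879 to 9.47 CPM in the remaining libraries; the part of free RNA in that value was not tested.

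Tnfrsf9, a co-stimulatory receptor induced by activation, was at 130, 386 and 412 CPM in Treg cells and at 52.8, 65.4 and 22.6 CPM in other CD4+ T cells of vehicle 2, mavrilimumab 1 and mavrilimumab 2. The groups did not overlap, and the log2 fold change was 2.99 ± 0.30 (SE, n = 3 libraries; edgeR adjusted p = 4.9e-06). Tnfrsf18, which is constitutively high on Treg cells, was at 439, 904 and 794 CPM against 122, 333 and 159 CPM in the same order, a log2 difference of 1.80 ± 0.18 (SE). Again the lowest Treg value exceeded the highest other CD4+ value.

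Tnfrsf1b was at 49.9, 207 and 143 CPM in Treg cells and at 26.4, 84.5 and 39.6 CPM in other CD4+ T cells, so that the groups overlapped across libraries but Treg cells were higher within each of the 3. Its log2 fold change was 1.44 ± 0.18 (SE). Tnfrsf8 rested on few molecules, with 2, 58 and 8 UMIs in Treg cells (20.0, 17.9 and 11.7 CPM) against 1, 17 and 0 in other CD4+ T cells, and it was not called without vehicle 2 or by DESeq2.

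The ligands ran the other way. Cd40lg, through which helper T cells activate B cells and myeloid cells, was at 20.0, 15.4 and 37.9 CPM in Treg cells and at 155, 153 and 175 CPM in other CD4+ T cells of vehicle 2, mavrilimumab 1 and mavrilimumab 2. It fell by 2.92 ± 0.23 (SE) on the log2 scale, with no overlap between the groups (edgeR adjusted p = 3.8e-07, n = 3 libraries). Tnfsf8 was at 30.0, 28.4 and 35 CPM against 115, 295 and 88.3 CPM and fell by 2.70 ± 0.30 (SE). Its receptor Tnfrsf8 was thus higher where Tnfsf8 was lower.

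The remaining receptors and ligands did not pass the threshold between the CD4+ groups. Tnfrsf13b (TACI, a receptor for BAFF and APRIL) was at 51.0 to 59.9 CPM in Treg cells and 13.2 to 35.7 CPM in other CD4+ T cells (log2 difference 0.71 ± 0.22 SE, edgeR adjusted p = 0.082). Tnfrsf25 (DR3), the TL1A receptor that expands Treg cells, was at 42.2 to 96.1 CPM against 41.8 to 59.9 CPM, and Tnfsf11 (RANKL) at 20.0 to 84.2 against 17.0 to 72.7 CPM. Without mavrilimumab 1 the number of superfamily genes called was 3 (Tnfrsf4, Tnfrsf18 and Cd40lg, with Tnfrsf8 not tested), and after subtraction of an estimated free RNA profile it was 0, with 0 genes called in the whole table. The log2 fold changes were then 2.49 for Tnfrsf4, 3.36 for Tnfrsf9, 1.77 for Tnfrsf18 and -3.81 for Cd40lg, with adjusted p values of 0.103, 0.126, 0.0897 and 0.126 (edgeR).

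**Figure D2:**
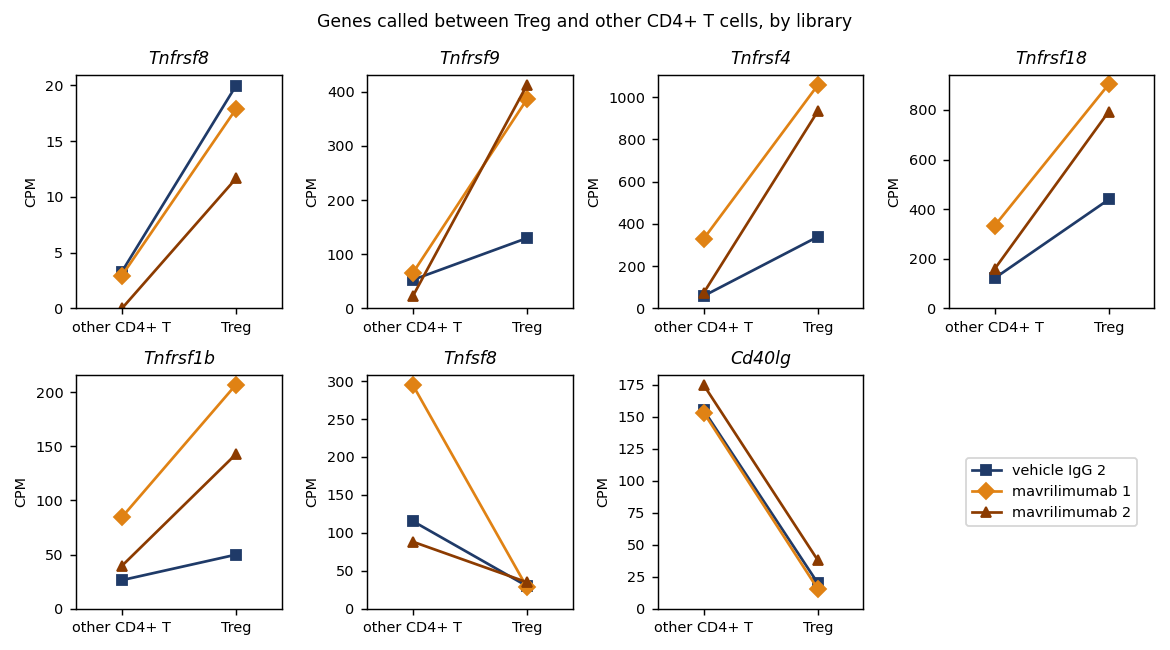
CPM (y axis) of the 7 genes called, in other CD4+ T cells and Treg cells (x axis), with 1 line per library. All 3 lines go up for the 5 receptors, and all 3 go down for Tnfsf8 and Cd40lg.

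Among downstream genes, a list of 33 proximal signalling genes (TRAF and RIP proteins, caspase-8 regulators, ubiquitin enzymes of the NF-kB pathway) was all tested in the same comparison. Birc2 (cIAP1, a ubiquitin ligase) rose by 0.65 ± 0.17 (SE) and Map3k14 (NIK, the kinase of the non-canonical pathway) fell by 0.83 ± 0.23 (SE) on the log2 scale, which is 6.06% of the list against 5.34% of all genes. Of 6 superfamily genes with other symbols, Fasl (FAS ligand) fell by 1.73 ± 0.31 (SE).

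CD8+ T cells were compared with other CD4+ T cells in all 4 libraries. CD8+ T cells had less of the helper ligands and of several co-stimulatory receptors, and more Tnfsf10 (TRAIL), a death ligand. Of 35 genes tested, 1 rose and 10 fell, where 10.6% of all genes were called, 6.07% as higher and 4.52% as lower. The median log2 fold change of the 35 genes was -0.47, against -0.01 for all genes.

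Cd40lg was at 5.93, 3.17, 3.42 and 2.65 CPM in CD8+ T cells of vehicle 1, vehicle 2, mavrilimumab 1 and mavrilimumab 2 and at 200, 155, 153 and 175 CPM in other CD4+ T cells, and it fell by 5.63 ± 0.17 (SE) on the log2 scale. Tnfrsf4 was at 0.989, 4.17, 12 and 3.34 CPM against 58.5, 59.4, 330 and 74.1 CPM and fell by 4.47 ± 0.18 (SE). Neither gene overlapped between the groups in any library. Tnfsf11, which binds RANK, was at 4.94 to 10.5 CPM against 17.0 to 72.7 CPM, and Tnfrsf25 at 3.71 to 11.3 CPM against 32.8 to 59.9 CPM, again without overlap.

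Smaller falls were called for Tnfrsf13b, Tnfrsf18, Lta (lymphotoxin alpha, which forms homotrimers or heterotrimers with Ltb), the death receptor Fas, and the neighbouring mouse genes Tnfrsf22 and Tnfrsf26. Their log2 fold changes ran from -0.82 (Lta) to -1.59 (Tnfrsf13b). With free RNA subtracted none of these 6 was called, with adjusted p values of 0.17 (Tnfrsf26) to 0.38 (Tnfrsf18) by edgeR. Treg markers summed to 660 CPM in other CD4+ T cells of mavrilimumab 1, and their part was not tested. Without that library 8 superfamily genes were called, of which 7 were among the 11. Tnfrsf22, Tnfrsf23 and Tnfrsf26 are related neighbours whose reads the counting could split, so that their values are uncertain.

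Tnfsf10 was at 85.1, 71.4, 114 and 83.4 CPM in CD8+ T cells and at 29.3, 9.90, 57.2 and 18.9 CPM in other CD4+ T cells, and it rose by 1.66 ± 0.21 (SE, n = 4 libraries; edgeR adjusted p = 0.00047). All CD8+ values exceeded all other CD4+ values. Ltb (450 to 745 against 399 to 823 CPM) and Cd27 (98.9 to 225 against 102 to 196 CPM), a co-stimulatory receptor of resting T cells, had log2 differences of -0.02 ± 0.11 and 0.02 ± 0.14 (SE) and were not called. Tnfrsf14 (HVEM), the receptor of the ligand Tnfsf14 (LIGHT), was at 4.34 to 10.0 against 6.60 to 15.1 CPM (log2 difference -0.72 ± 0.29 SE, not called), and Tnfsf14 itself at 10.7 to 15.8 against 7.80 to 15.4 CPM. With free RNA subtracted 1 gene of the family was called, Tnfsf10, and 30 genes in the whole table. The log2 fold changes were then -6.82 for Cd40lg, -5.84 for Tnfrsf4 and -3.75 for Tnfrsf25, with adjusted p values of 0.06, 0.14 and 0.057 (edgeR). Of the signalling list, Mlkl and Bid, both effectors of cell death, rose by 1.43 and 0.82 on the log2 scale, and Tnip2, Tnfaip3 (A20) and Traf5 had the largest of 5 falls (-0.89, -0.72 and -0.56), 21.2% of the list being called against 10.6% of all genes. Fasl rose by 1.75 ± 0.14 (SE).

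NK cells were compared with CD8+ T cells, the other cytotoxic group, in 3 libraries, of which mavrilimumab 1 held only 20 NK cells. T cell markers (Cd4, Cd3d, Cd3g, Trac, Cd5 and Icos) summed to 379 CPM in these 20 cells. They summed to 104 and 81.5 CPM in NK cells of vehicle 2 and mavrilimumab 2. The part of T cell RNA in the NK values was not tested. NK cells had more of the death ligands and inflammatory ligands Tnfsf10 and Tnfsf12 (TWEAK) and of Tnfrsf9, and less Cd27, Fas and Tnf. Of 35 genes tested, 6 rose and 6 fell, where 10.9% of all genes were called, 5.09% as higher and 5.78% as lower.

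Tnfsf12 was at 27.3, 98.9 and 65.8 CPM in NK cells of vehicle 2, mavrilimumab 1 and mavrilimumab 2 and at 2.17, 0.427 and 3.06 CPM in CD8+ T cells, a rise of 4.60 ± 0.48 (SE) on the log2 scale. Tnfrsf9 was at 168, 239 and 315 against 40.4, 48.9 and 82.9 CPM (1.93 ± 0.13 SE, edgeR adjusted p = 2.7e-06, n = 3 libraries), and Tnfsf10 at 156, 247 and 219 against 71.4, 114 and 83.4 CPM (1.12 ± 0.14 SE). NK and CD8+ values did not overlap for any of these 3 genes.

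Tnfrsf9 in NK cells was also set beside Treg cells, which had 130 to 412 CPM, and the ranges overlapped. Its ligand Tnfsf9 was at 0 to 9.37 CPM in NK cells and at most 11.1 CPM in any group. Tnfsf4, the OX40 ligand, was at 2.05, 49.4 and 15.7 CPM in NK cells against 1.33, 8.33 and 1.20 CPM (3, 6 and 99 UMIs in NK cells), and its call (2.66 ± 0.58 SE) was lost without either mavrilimumab library. Tnfrsf13c (BAFF receptor) rose by 1.87 ± 0.40 and Tnfrsf18 by 0.52 ± 0.13 (SE).

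Cd27, which NK cells lose as they mature, was at 46.4, 98.9 and 35 CPM against 98.9, 213 and 127 CPM and fell by 1.58 ± 0.17 (SE), with each NK value below the CD8+ value of its library. Fas was at 4.77, 0 and 2.86 CPM against 16.2, 27.2 and 17.6 CPM and fell by 2.48 ± 0.38 (SE). Tnfrsf26 was at 3.41, 0 and 1.43 CPM against 11.3, 11.4 and 13 CPM and fell by 2.76 ± 0.49 (SE). Tnf and Tnfsf8 fell by 1.14 and 0.61, but both calls were lost by DESeq2 and without either mavrilimumab library. Cd40lg had 1 UMI in all NK cells and 128 in the CD8+ T cells of the same libraries, a pooled ratio of 22.7 (95% exact binomial interval 4.00 to 904, counting error only). Without mavrilimumab 2 the number of superfamily genes called was 6 among 739 of all genes, and without library as a block 0 among 172, against 12 among 1501. After free RNA was subtracted 6 remained among 951 of all genes, Tnfsf12, Tnfrsf9, Tnfsf10, Cd27, Fas and Tnfrsf26. Calls were lost for Tnfrsf13c, Tnfsf8, Tnfsf4, Tnf, Tnfrsf18 and Cd40lg, with adjusted p values of 0.053, 0.081, 0.089, 0.092, 0.10 and 0.21 (edgeR). With the profile from barcodes of 1 to 300 UMIs, 0 superfamily genes and 28 of all genes were called. Of the 33 genes of the signalling list 2 were called, 6.06% against 10.9% of all genes: Tab2 and Traf2, both adaptors of the TNF receptor complex, rose by 0.72 and 0.71.

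Microglia were compared with CD8+ T cells as the myeloid against the lymphoid side of the family. Microglia carried receptors that were near 0 in CD8+ T cells, with Tnfrsf11a (RANK), Tnfrsf21 (DR6), Ltbr (lymphotoxin beta receptor) and Cd40 among them, and the ligands Tnf, Tnfsf12, Tnfsf13 (APRIL) and Tnfsf13b (BAFF). Of 36 genes tested in 4 libraries, 14 rose and 14 fell, where 46.9% of all genes were called, 26.1% as higher and 20.8% as lower.

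Tnfrsf11a, the receptor of RANKL, was at 196, 99.1, 132 and 111 CPM in microglia of vehicle 1, vehicle 2, mavrilimumab 1 and mavrilimumab 2 and at 0, 2.17, 0.214 and 0.825 CPM in CD8+ T cells, a log2 difference of 7.09 ± 0.61 (SE, n = 4 libraries; edgeR adjusted p = 0.00057). After thinning to 1000 UMIs, 10.7% to 18.2% of microglia had a Tnfrsf11a UMI, against 0% to 0.0971% of CD8+ T cells as background, and before thinning 27.7% to 78.4% against 0% to 0.634%, at median depths of 3170 to 19171 and 2714 to 14807.5 UMIs. Its ligand Tnfsf11 was at 0.639 to 2.05 CPM in microglia and highest in Treg cells and other CD4+ T cells of mavrilimumab 1 (84.2 and 72.7 CPM).

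Tnfrsf21, a death-domain receptor of the nervous system and immune cells, was at 217, 110, 193 and 167 CPM in microglia and at 0.320 to 6.50 CPM in CD8+ T cells (log2 difference 6.24 ± 0.82 SE). Tnfrsf1a, the ubiquitous death-domain receptor for TNF, was at 151, 109, 174 and 151 CPM against 34.6, 45.4, 40.2 and 39.9 CPM (1.90 ± 0.22 SE). For both, the lowest microglial value exceeded the highest CD8+ value. Tnfrsf1b rose by 0.86 ± 0.24 (SE), from 45.7 to 81.6 CPM in CD8+ T cells to 62.2 to 148 CPM in microglia, with overlapping ranges.

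Ltbr, which binds lymphotoxin alpha and beta heterotrimers, was at 67.0, 46.5, 67.5 and 67.8 CPM in microglia and at 0 to 4.34 CPM in CD8+ T cells (log2 difference 5.69 ± 0.78 SE), whereas Ltb was at 5.74 to 28.7 CPM in microglia and 450 to 745 CPM in CD8+ T cells. Cd40, the receptor of Cd40lg on antigen-presenting cells, was at 8.68, 17.1, 14.4 and 25.1 CPM against 0, 0.500, 0.748 and 0.860 CPM (4.79 ± 0.39 SE). Ligand and receptor thus stood on opposite sides for both pairs.

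Tnfrsf17 (BCMA), known as the plasma cell receptor for BAFF and APRIL, was at 11.3, 7.52, 15.9 and 5.75 CPM in microglia, with 169, 11, 21 and 54 UMIs. The CD8+ T cells of the 4 libraries held 1 UMI of it together, a pooled ratio of 427 (95% exact binomial interval 75.9 to 16928, counting error only). Plasma cell markers summed to 0.0668, 17.8, 6.83 and 10.8 CPM in the same microglia, with 1, 1, 2 and 3 of the 3 markers detected, and their part in the microglial values was not tested. In T cells Tnfrsf17 was above 0.107 CPM only in mavrilimumab 1, at 7.71 CPM in Treg cells and 4.68 CPM in other CD4+ T cells, the 2 sums with plasma cell markers at 2910 and 2005 CPM, whose part in those values was not tested. Tnfrsf13b, which shares these ligands, was at 43.0, 33.5, 56.1 and 55.1 CPM in microglia and 6.84 to 13.8 CPM in CD8+ T cells (log2 difference 2.41 ± 0.22 SE).

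Among ligands, Tnf was at 58.6, 205, 89.5 and 214 CPM in microglia and at 24.7, 27.2, 43.6 and 41.5 CPM in CD8+ T cells (1.97 ± 0.32 SE), without overlap. Neutrophil markers summed to 476, 187, 375 and 609 CPM in these microglia, and their part in the Tnf values was not tested. Tnfsf12 was at 36.3 to 59.2 CPM in microglia against 0.427 to 3.06 CPM, and Tnfsf13b at 21.9 to 49.3 against 1.82 to 12.2 CPM. Tnfsf13, a neighbour of Tnfsf12 on the chromosome, was at 5.14 to 15.7 against 0 to 8.17 CPM, and its call was lost without vehicle 1 or without either mavrilimumab library. Rises were also called for Tnfrsf12a, the TWEAK receptor (2.45 ± 0.48 SE), and the decoy receptor Tnfrsf23 (1.82 ± 0.40 SE).

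The 14 falls were led by Cd27 (-6.11), Lta (-5.35), Tnfrsf26 (-5.31), Ltb (-4.98), Cd40lg (-4.49), Tnfrsf18 (-4.46), Tnfrsf9 (-4.05), Tnfsf14 (-3.29), Tnfsf4 (-3.22) and Tnfrsf10b, the TRAIL receptor (-2.63), on the log2 scale. Tnfsf10, Tnfsf11, Fas and Tnfsf8 fell by 2.34, 2.34, 1.90 and 1.42. Of the signalling list 6 genes rose, led by Tnip2 (2.49), Cflar (0.99) and Map3k14 (0.60), and 9 fell, led by Traf1 (-5.03), Traf4 (-2.85) and Ripk3 (-1.97), which is 45.5% of the list against 46.9% of all genes. Fasl and Relt fell by 6.75 and 1.61. With free RNA subtracted, 8 superfamily genes remained called, Tnfrsf11a, Tnfrsf21, Tnfrsf1a, Tnfrsf13b, Tnfsf12, Cd27, Ltb and Tnfsf14, among 1060 genes in the whole table. Calls lost included those of Ltbr, Cd40, Tnfrsf9 and Tnfrsf18, whose log2 differences were then 12.07, 7.82, -7.70 and -12.25, with adjusted p values of 0.052, 0.051, 0.051 and 0.053 (edgeR).

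**Figure D3:**
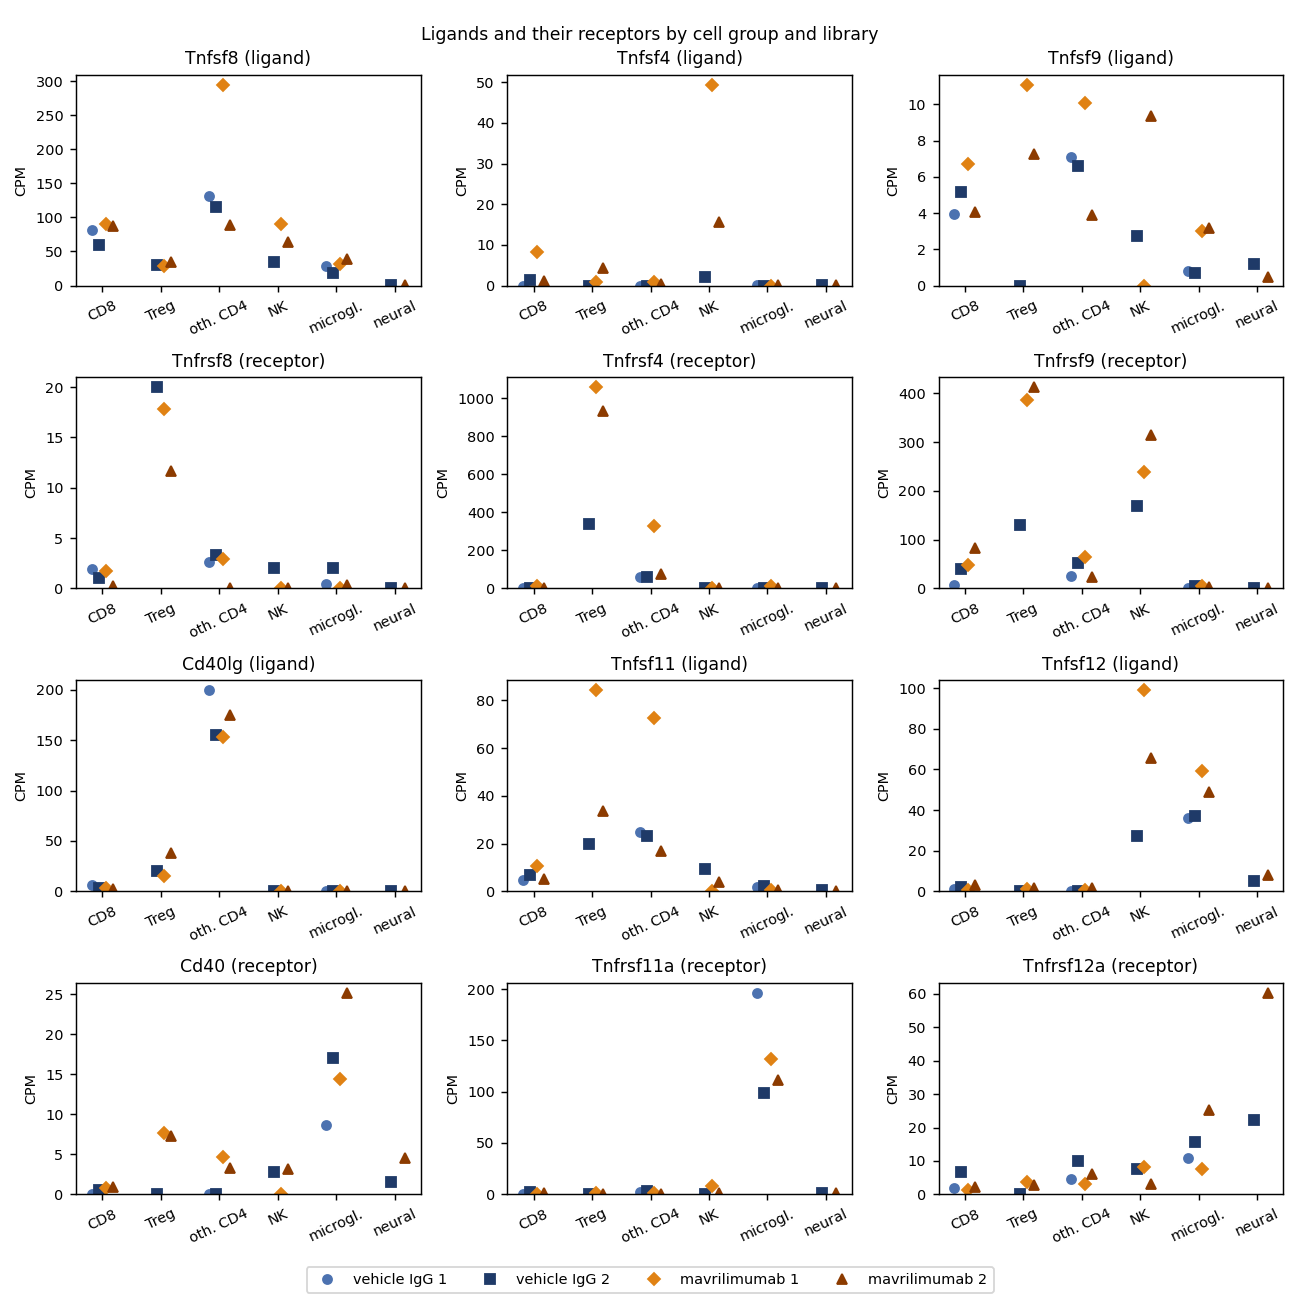
CPM (y axis, linear) of 6 ligands and, in the panel under each, its receptor, by cell group (x axis), with 1 point per library. Cd40lg is at 153 to 200 CPM in other CD4+ T cells, while among the 6 groups Cd40 is highest in microglia at 8.68 to 25.1 CPM. Tnfrsf11a is at 99.1 to 196 CPM in microglia while Tnfsf11 is highest in CD4+ groups.

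Neural cells were compared with microglia in vehicle 2 and mavrilimumab 2, the 2 libraries with enough of both. Of 30 genes tested none rose and 7 fell, where 8.49% of all genes were called, 0.475% as higher and 8.01% as lower. Tnf was at 1.05 and 4.12 CPM in neural cells against 205 and 214 CPM in microglia (log2 difference -7.01 ± 0.68 SE), and Tnfrsf11a at 0.974 and 1.14 against 99.1 and 111 CPM (-6.92 ± 0.24 SE). Tnfrsf13b, Ltb, Tnfsf12 and Tnfrsf21 fell by 6.82, 3.75, 3.00 and 2.99. Tnfrsf17 had 3 UMIs in all neural cells and 65 in the microglia, a pooled ratio of 158 (95% exact binomial interval 51.8 to 787).

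Some genes were higher in neural cells without passing the threshold. Tnfrsf19 (TROY), a receptor of neural progenitors, was at 29.1 and 25.9 CPM in neural cells and 4.78 and 1.81 CPM in microglia of vehicle 2 and mavrilimumab 2 (log2 difference 2.98 ± 0.49 SE, edgeR adjusted p = 0.062, n = 2 libraries). Tnfrsf12a was at 22.3 and 60.2 against 15.7 and 25.1 CPM, Tnfsf13 at 48.3 and 21.7 against 15.7 and 11.0 CPM, and Tnfrsf25 at 29.9 and 22.2 against 11.6 and 3.09 CPM. Fas was at 7.68 and 24.5 against 7.52 and 7.03 CPM. Tnfrsf1a (59.4 and 114 CPM) and Ltbr (23.5 and 57.2 CPM) were present in neural cells below their microglial levels. Microglial markers summed to 536 and 1735 CPM in neural cells of vehicle 2 and mavrilimumab 2, against 12376.5 and 17336 CPM in microglia. Neural markers summed to 1444 and 226 CPM in these microglia, against 6669 and 5357 CPM in neural cells. The part of such foreign RNA in these values was not tested. With 2 libraries the count depended on the test, and DESeq2 and limma-voom called 16 and 17 superfamily genes, and 4146 and 3726 of all genes, where edgeR called 1269. With free RNA subtracted, 0 were called, with log2 differences of -9.37 for Tnfrsf11a, -10.99 for Tnf and -11.46 for Tnfrsf13b. Of the signalling list 8 genes fell, led by Tnfaip3 (-4.93), Casp8 (-4.20) and Traf5 (-4.03), which is 25% of the list against 8.49% of all genes. Of the superfamily genes with other symbols Ngfr, a neurotrophin receptor, rose by 2.70 ± 0.35 (SE).

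Treatment was compared within each cell group, to ask whether blockade of the GM-CSF receptor came with a different superfamily profile. In CD8+ T cells, other CD4+ T cells and microglia, with 2 libraries per treatment, edgeR called none of 30, 24 and 26 superfamily genes, and none of any genes (0% called in each). At an unadjusted p under 0.05 there were 1, 2 and 1 superfamily genes, beside 503 of 12241, 257 of 10580 and 262 of 13039 of all genes, and DESeq2 and limma-voom also called none of the superfamily genes. Of all genes DESeq2 called 16, 7 and 6 in these groups and limma-voom 0. An exact permutation test of 2 against 2 libraries cannot give a p below 0.33. In simulated counts with 1 assumed spread between libraries, edgeR recovered 26%, 19% and 12% of 2-fold changes in these groups. It recovered 98%, 84% and 93% of 4-fold changes. A count of 0 therefore does not show that smaller differences were absent. In neural cells each treatment had 1 library, so no test was made.

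Levels that did not overlap between treatments were counted against all genes. They were 7 of 30 in CD8+ T cells (23.3%, against 32% of all genes), 9 of 24 in other CD4+ T cells (37.5% against 29.8%) and 7 of 26 in microglia (26.9% against 28.9%). In CD8+ T cells Tnfrsf9 was at 7.91 and 40.4 CPM in vehicle and 48.9 and 82.9 CPM in mavrilimumab libraries (log2 difference 1.39 ± 0.75 SE), Tnf at 24.7 and 27.2 against 43.6 and 41.5 CPM (0.76 ± 0.22 SE), and Tnfrsf1b at 52.4 and 45.7 against 81.6 and 57.0 CPM (0.56 ± 0.24 SE). None of these 3 differences passed the threshold (edgeR adjusted p = 0.882).

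In other CD4+ T cells Tnfrsf4 was at 58.5 and 59.4 CPM in vehicle and 330 and 74.1 CPM in mavrilimumab libraries (1.81 ± 0.71 SE), Tnfrsf1b at 27.5 and 26.4 against 84.5 and 39.6 CPM (1.25 ± 0.42 SE), and Tnfrsf18 at 110 and 122 against 333 and 159 CPM (1.13 ± 0.39 SE). For each, mavrilimumab 1 was the highest library. Its free RNA held 182 CPM of Tnfrsf4 and 198 CPM of Tnfrsf18, against at most 9.47 and 56.1 CPM in the other libraries. Treg markers summed to 660 CPM in its other CD4+ T cells, against 175, 442 and 145 CPM in vehicle 1, vehicle 2 and mavrilimumab 2. The part of free RNA and of cells with these markers in the values was not tested. In microglia Tnfsf13b was at 26.1 and 21.9 against 49.3 and 39.8 CPM (0.93 ± 0.27 SE), Tnfsf12 at 36.3 and 36.9 against 59.2 and 49.1 CPM (0.61 ± 0.23 SE) and Tnfsf8 at 28.5 and 17.8 against 31.1 and 38.7 CPM (0.62 ± 0.34 SE). These differences were not called, with an edgeR adjusted p of 0.999 (n = 2 libraries per treatment). The estimated free RNA share of these microglia was 61.9% and 70.7% in vehicle and 20.0% and 24.1% in mavrilimumab libraries. Its part in the microglial differences was not tested.

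**Figure D4:**
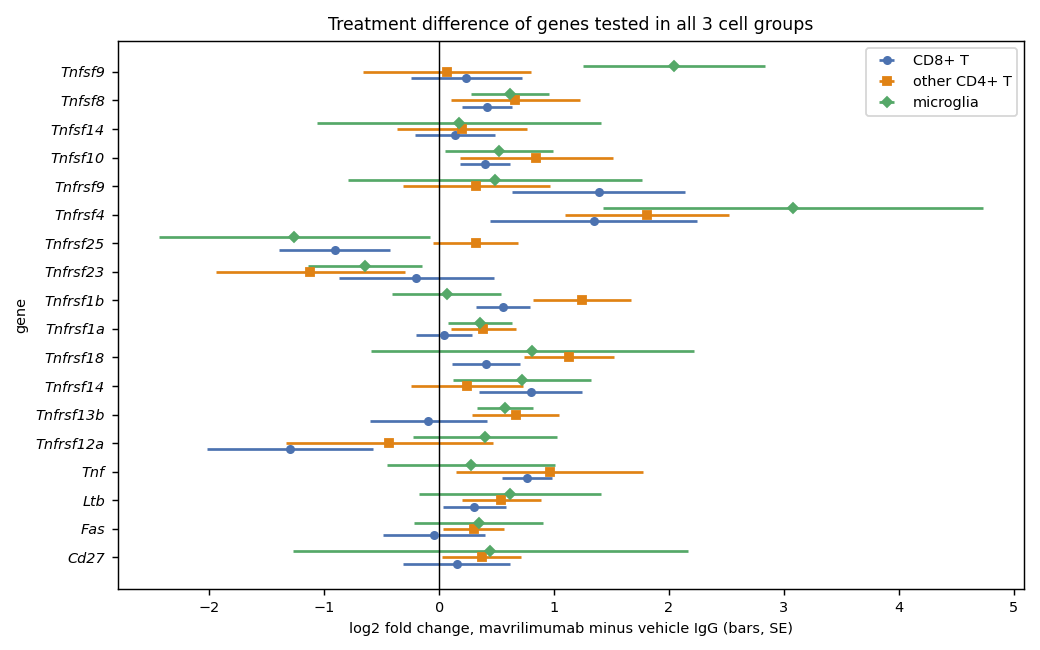
Log2 fold change of mavrilimumab minus vehicle IgG (x axis) with its SE (bars) for the 18 genes (y axis) tested in CD8+ T cells, other CD4+ T cells and microglia. Points lie on both sides of 0, and no gene was called in any of the 3 groups.

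Treg cells allowed only 1 vehicle library (27 cells, 100158 UMIs) against 2 mavrilimumab libraries, and the lone library was assumed to vary like the other 2. None of 19 genes was called, where 0.77% of all genes were (0.044% as higher and 0.726% as lower), whereas 9 had an unadjusted p under 0.05, all higher with mavrilimumab, beside 1114 of 9088 of all genes. DESeq2 and limma-voom called none of the superfamily genes, and 118 and 68 of all genes. Levels of 16 of the 19 did not overlap (84.2%, against 84.6% of all genes). In simulated counts edgeR recovered 1% of 2-fold and 39% of 4-fold changes here. Fas was listed at 0 in vehicle 2 and at 63.2 and 46.6 CPM in mavrilimumab libraries, and Tnfsf10 at 0, 72.1 and 61.2 CPM, which is at least 2.01-fold and at least 2.34-fold higher against a floor of 3 counts. Tnfrsf1a was at 9.98 CPM, 1 UMI, against 39.1 and 30.6 CPM. In the vehicle 1 library, left out for its 16 Treg cells (233207 UMIs), Tnfrsf4 was at 287 CPM and Tnfrsf18 at 266 CPM. The vehicle values of Fas, Tnfsf10 and Tnfrsf1a above come from vehicle 2 alone. Summed Treg cells held 3244163 and 686674 UMIs in mavrilimumab 1 and 2, so the filter on low counts favoured genes high in these libraries. The shared direction of the 9 genes therefore does not show a difference between treatments. Neural markers summed to 1208 CPM in Treg cells of vehicle 2 and to 7.71 and 14.6 CPM in those of mavrilimumab 1 and 2. Plasma cell markers summed to 0, 2910 and 0 CPM in that order, and the part of either was not tested.

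NK cells were the only group in which edgeR called superfamily genes between the treatments, with 1 vehicle library against 2, of which mavrilimumab 1 held 20 cells. The spread came from the mavrilimumab libraries alone, so the test compares these libraries and does not show a difference between treatments. Of 23 genes tested 2 were called higher and 3 lower, where 11.9% of all genes were called (0.799% as higher and 11.1% as lower), and levels of 15 did not overlap, as did those of 68.1% of all genes. Tnfsf12 was at 27.3 CPM in vehicle 2 and at 98.9 and 65.8 CPM in mavrilimumab 1 and 2 (log2 difference 1.43 ± 0.43 SE), and Tnfsf4 at 2.05 CPM (3 UMIs) against 49.4 and 15.7 CPM, a pooled ratio of 8.00 (95% exact binomial interval 2.66 to 39.4, counting error only). Lta was at 32.1 CPM against 0 and 6.51 CPM (-2.33 ± 0.61 SE). T cell markers summed to 104 CPM in NK cells of vehicle 2 and to 379 and 81.5 CPM in those of mavrilimumab 1 and 2, and their part was not tested.

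The other genes called lower are high in neural cells. Tnfrsf19 was at 13.6 CPM (20 UMIs) in NK cells of vehicle 2 and had no UMI in those of the mavrilimumab libraries, at least 29.2-fold lower against a floor of 3 counts over both. Tnfsf13 was at 16.4 CPM against 0 and 1.27 CPM (-3.64 ± 1.05 SE). Neural markers summed to 1349 CPM in NK cells of vehicle 2 and to 0 and 15.6 CPM in those of mavrilimumab 1 and 2, and oligodendrocyte markers to 417 CPM against 16.5 and 9.22 CPM. Their part in these differences was not tested. DESeq2 called 0 of the superfamily genes and 246 of all genes, and limma-voom 9 and 2585. After free RNA was subtracted, Lta was the only superfamily gene among 329 genes called.

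**Figure D5:**
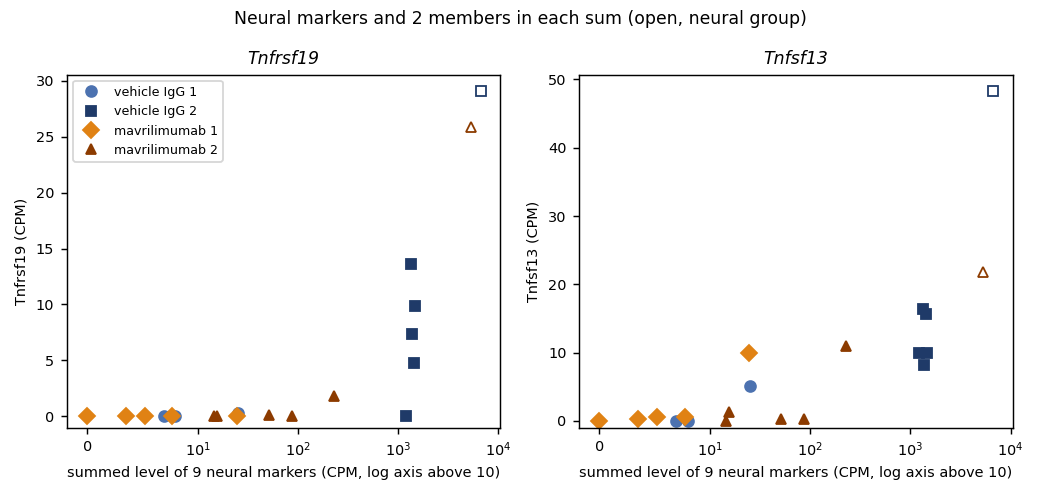
CPM of Tnfrsf19 (left) and Tnfsf13 (right) against the summed CPM of 9 neural markers (x axis, log scale above 10) in each sum of at least 20 cells, with open symbols for neural cells. Immune groups of vehicle 2 sit at 1208 to 1458 CPM of neural markers, with Tnfrsf19 at 0 to 13.6 CPM, while those of the other libraries are at 1.81 CPM or less.

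The difference between cell groups was also tested for a change with treatment. This interaction could be fitted for CD8+ against other CD4+ T cells and for microglia against CD8+ T cells, where edgeR called none of 35 and none of 36 superfamily genes (0.0741% and 0% of all genes were called). At an unadjusted p under 0.05 there were 2 and 3, beside 615 of 13503 and 733 of 15554 of all genes. DESeq2 and limma-voom called none of the superfamily genes, and of all genes DESeq2 called 0 and 1 and limma-voom 0. In simulated counts edgeR recovered 5% and 3% of 2-fold changes and 40% of 4-fold changes in each, so these counts do not show that the differences were equal.

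CD8+ T cells of expanded clonotypes (at least 3 barcodes with the same TCR) were compared with those of clonotypes seen once, in the 2 libraries with enough of both. TCR files were joined by shared barcodes, against their labels for both libraries: gene expression library mavrilimumab 1 took the TCR file labelled mavrilimumab 2, and mavrilimumab 2 that labelled mavrilimumab 1. None of 26 genes was called by edgeR, where 0.0363% of all genes were (0.0181% as higher and 0.0181% as lower), although 16 had an unadjusted p under 0.05, beside 1426 of 11029 of all genes. DESeq2 and limma-voom also called none of the superfamily genes, and 48 and 5 of all genes. In simulated counts edgeR recovered 17% of 2-fold and 93% of 4-fold changes. Tnfrsf9 was at 71.4 and 102 CPM in expanded cells of mavrilimumab 1 and 2 and at 35.5 and 71.4 CPM in single cells, and Tnfsf10 at 142 and 112 against 93.7 and 72.7 CPM. Tnf was at 47.5 and 67.1 against 40.1 and 32.8 CPM. Tnfrsf26 was at 6.39 and 3.91 against 15.4 and 16.4 CPM, and Cd27 at 224 and 100 against 206 and 136 CPM. The first 4 genes differed the same way in both libraries and Cd27 did not.

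Only mavrilimumab 1 had enough expanded cells among Treg and other CD4+ T cells, so their values have no replicate. In that library Tnfrsf4 was at 1258 CPM in 363 expanded and 869 CPM in 202 single Treg cells, and Tnfrsf9 at 437 and 312 CPM. In other CD4+ T cells Tnfrsf4 was at 421 CPM in 439 expanded and 240 CPM in 652 single cells. Treg markers summed to 660 CPM in the other CD4+ T cells of this library, and their part in these values was not tested.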

How the data were processed

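Gene expression was measured in 4 libraries from sorted cells of ZFTA-RELA ependymoma mice. The authors deposited raw Cell Ranger matrices of UMI counts per gene and barcode (Cell Ranger 9.0.1 per the file headers, 7 and 7.1.0 with mm10 and Scanpy 1.8.2 in the submitters' processing notes), without replicate pooling or normalisation, and lists of TCR contigs, whose deposited counts of UMIs were used only to assign clonotypes; each was joined to the gene expression library with which it shared most barcodes. Of 33696 gene identifiers, 31961 matched the reference names.

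Cells had at least 1000 UMIs and at most 10% mitochondrial UMIs. Gates were Cd3e of at least 1 with Cd8a and Cd8b1 summing to at least 2 (CD8+), Foxp3 of at least 1 (Treg) or Cd4 of at least 1 without Foxp3 (other CD4+), Ncr1 and Klrb1c summing to at least 2 without Cd3e (NK), P2ry12 and Tmem119 summing to at least 2 (microglia), and Nnat and Mdk summing to at least 3 without Ptprc (neural). Droplets in more than 1 gate (9 to 327 per library) were left out, which was the only treatment of doublets. Counts were summed per library and cell group of at least 20 cells and tested with edgeR 4.0.16 (R 4.3.3; filterByExpr, TMM, quasi-likelihood, Benjamini-Hochberg FDR of 0.05 over all genes tested), with library as a block between cell groups and clone classes. The SE is the log2 fold change divided by the square root of F. Alternatives were DESeq2 1.42.0, limma-voom (limma 3.58.1), other cell filters, each library left out, and subtraction of a free RNA profile from barcodes of 1 to 100 UMIs or, chosen after seeing the data, 1 to 300. Intervals are 95% exact binomial and cover counting error only, as does the floor of 3 counts. Scripts used Python 3.11.15 and were tested on simulated data.

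The members and lists were chosen with earlier results of these data known. All genes of the family were described, with every member past the threshold and values for up to 10 per direction. For treatments without a call, up to 3 members with a mean of 20 CPM or more and no overlap were given. The labels grouped the samples.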

Additional observations from a re-analysis of the deposited data

How the results depend on the processing

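Of 1016 values of called superfamily genes under the alternatives, 812 kept their direction and side of the threshold, 204 kept their direction without passing it and 0 reversed. Called genes that an alternative no longer tested are not among these values. Subtraction of free RNA, at estimated shares that can be too high, lowered every count of called genes between cell groups. With barcodes of 1 to 100 UMIs they were 0 of 7 for Treg against other CD4+ T cells, 1 of 11 for CD8+ against other CD4+ T cells, 6 of 12 for NK against CD8+ T cells, 8 of 28 for microglia against CD8+ T cells, 0 of 7 for neural cells against microglia and 1 of 5 for treatment in NK cells, and of all genes 0 of 602, 30 of 1431, 951 of 1501, 1060 of 7293, 0 of 1269 and 329 of 1375. With barcodes of 1 to 300 UMIs, chosen after seeing the data, they were 0, 0, 0, 21, 0 and 1, among 0, 0, 28, 2376, 86 and 489 of all genes. Without library as a replicate block they were 0, 3, 0 and 14 for the Treg, CD8+, NK and neural contrasts (1, 131, 172 and 2629 of all genes), and with all 6 cell groups in 1 fit 4, 6, 6 and 22 (77, 300, 774 and 7003). The causes were not tested.

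Leaving out 1 library gave 3 to 7 calls for Treg cells (3 without mavrilimumab 1), 8 to 11 for CD8+ T cells, 6 to 12 for NK cells (6 without mavrilimumab 2) and 22 to 30 for microglia, among 28 to 494, 749 to 1152, 739 to 1253 and 4369 to 8169 of all genes. For treatment in microglia it gave 0 to 1, among 0 to 234 of all genes. The 1 call, among 234, came without vehicle IgG 2, which leaves 1 vehicle library. A minimum of 2000 UMIs gave 7 calls for NK cells and 4 for neural cells, among 993 and 979 of all genes. For neural cells, 200 to 6000 genes per cell gave 2, gates raised by 1 UMI 15, DESeq2 16, limma-voom 17 and no filter on low counts 17, among 309, 2911, 4146, 3726 and 4650 of all genes. Treatment in NK cells had 0 calls with DESeq2 and 9 with limma-voom, among 246 and 2585. Without the filter there were 6 calls for treatment in Treg cells, 3 in other CD4+ T cells, 6 between clone classes and 1 for the interaction of treatment with CD8+ against other CD4+ T cells, and of all genes 784, 437, 635 and 128.

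Pairing of same-numbered libraries as a replicate block gave 0 calls for treatment in CD8+ T cells, other CD4+ T cells and microglia. Deviations of same-numbered libraries correlated at 0.52, 0.33 and 0.67, and with 2 pairs it is undecided whether the numbers pair the libraries. In all genes the block called 6, 15 and 229, against 0 in each without it. Leaving out a library could not be fitted for neural cells, clones, or treatment in Treg and NK cells, nor could the block for treatment in Treg and NK cells. Gates raised by 1 UMI could not be fitted for treatment in Treg and NK cells or for that interaction, nor 2000 UMIs for treatment in NK cells.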

Other observations

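Droplets that passed the filters, lay in none of the 6 gates and had no Cd3e were also grouped by pairs of markers chosen after the data were seen, and are given as values with no test and no cell type name. Droplets with Cd79a and Cd79b summing to at least 3 UMIs numbered 34, 22 and 124 in vehicle 2, mavrilimumab 1 and mavrilimumab 2. Tnfrsf13c, the BAFF receptor, was at 84.1, 298 and 237 CPM in them, and Cd40 at 60.1 (5 UMIs), 142 and 55.6 CPM. Droplets with Ly6c2 and Ccr2 summing to at least 3 UMIs numbered 175, 109 and 109. Tnfsf13 was at 25.8, 46.2 and 36.6 CPM in them, beside lymphoid genes such as Ltb at 236, 313 and 61.6 CPM and Cd27 at 54.4, 65.7 and 3.85 CPM. Cd40 was at 0, 114 and 37.1 CPM in the same droplets.

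Droplets with S100a8 and S100a9 summing to at least 20 UMIs numbered 49 in vehicle 2 and 48 in mavrilimumab 2. Tnf was at 579 and 1574 CPM in them, above the 205 and 214 CPM of microglia in the same libraries.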
